A study of Mus musculus with 60 samples.

Results

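The compaction and cavitation genes were 9 of the 27238 genes in an expression table of mouse preimplantation embryos: Cdh1, Ctnnb1, Tjp1, Cldn4, Cldn6, Cldn7, Aqp3, Aqp8 and Atp1b1. They were chosen by name for their roles and matched by Ensembl identifier, and all 9 were found. The study compared fertilized embryos with embryos cloned by nuclear transfer (NT), to ask which transcripts are mis-regulated after a somatic nucleus is placed in an oocyte. The table held 60 RNA-seq libraries in 20 groups of 3, with 1 embryo or 1 donor cell sample in each library. In vivo embryos came from superovulated C57BL/6 females mated with DBA2 males and were collected at 6 stages: 1-cell, 2-cell, 4-cell and 8-cell embryos, morulae and blastulas, as the labels call them. NTC embryos carried the nucleus of a cumulus cell (CC), one of the somatic cells that surround the oocyte, and NTM embryos that of a mouse embryonic fibroblast (MEF). Both were made with enucleated oocytes of adult BDF1 females, were activated with strontium chloride and cytochalasin B, were treated with Scriptaid, a histone deacetylase inhibitor, and cultured in vitro, and were collected at the same 6 stages. CC and MEF donor cells made up the other groups, and every group shared the BDF1 background (C57BL/6 by DBA2). The MEFs came from mid-gestation fetuses and were serum-starved. In vivo embryos grew from C57BL/6 oocytes and NT embryos from BDF1 oocytes. Nuclear transfer, oocyte strain, activation, Scriptaid and culture cannot be told apart here, as NT but not in vivo embryos were activated, treated and cultured. Embryos were picked by morphology, which limits both as models of an unselected embryo.

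At compaction the blastomeres of the mouse embryo flatten against each other through E-cadherin (Cdh1), whose cytoplasmic tail binds beta-catenin (Ctnnb1). Tight junctions then seal the outer cells, built from claudins and from scaffold proteins such as ZO-1 (Tjp1). The sodium pump, of which Atp1b1 is a beta subunit, moves ions across the outer layer, and water follows through aquaporins such as Aqp3 and Aqp8 to fill the blastocoel.

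Levels are given in RPKM, read counts scaled to transcript length and library size, which is meant to let genes of different length be set side by side. How evenly the amplified cDNA covered long transcripts was not tested. Depth, recovered from the RPKM values and exon lengths, was 5294167 to 47830132 reads per library (median 15451428), and 3 reads corresponded to 0.00803 to 0.376 RPKM for these genes. Reads carried no molecular identifiers, so that such floors cover counting error only. In an embryo library, fewer cells that express a gene and less RNA per cell cannot be told apart. Differences were tested with limma on log2(RPKM + 1) and are given on that scale, which understates the change of low genes. A gene was tested where its mean over the libraries compared was at least 0.5 RPKM, and was called at a Benjamini-Hochberg adjusted p under 0.05 over all genes tested with a log2 difference of at least 1 in size. Several libraries stood apart. In vivo 1-cell replicate 1 had 9491 genes above 0, the lowest count among the 1-cell libraries, in vivo morula replicate 1 had 64.2% of its reads on mitochondrial genes, and the in vivo blastulas had 7730 to 7808 genes above 0 against 11498 to 13568 in the NT blastulas. The in vivo 4-cell libraries held 5.68% to 8.87% mitochondrial reads and the NT 4-cell libraries 29.6% to 40.4%. Cumulus markers were at 0 in all in vivo morula and blastula libraries, but summed to as much as 7.57 RPKM in other embryo libraries (NTC 2-cell). The 10 fibroblast markers summed to 5928 to 9064 RPKM in MEF and to 5.04 to 15.9 RPKM in CC. In embryo libraries they reached 21.2 RPKM (NTC 8-cell) and 20.9 RPKM (in vivo blastula). The 10 cumulus markers did not set the donors apart, with 316 to 539 RPKM in CC, where Has2 was at 0, and 535 to 1258 RPKM in MEF.

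The 9 genes did not share one time course. Ctnnb1, Cdh1 and Tjp1 were above 0 in all 54 embryo libraries, and Ctnnb1 was at 1 RPKM or more in each of them. Cldn6, Cldn7 and Aqp3 were at 0 in all 9 1-cell libraries, and Cldn7 in all 9 2-cell libraries as well. Aqp8 was above 0 in 4 embryo libraries, all of them blastulas. The highest single value was 452 RPKM of Cldn4 in NTM blastula replicate 2. By library, 2 to 5 of the 9 genes reached 1 RPKM in in vivo 1-cell embryos, 7 or 8 in in vivo 4-cell embryos and 8 or 9 in NTM blastulas.

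**Figure D1:**
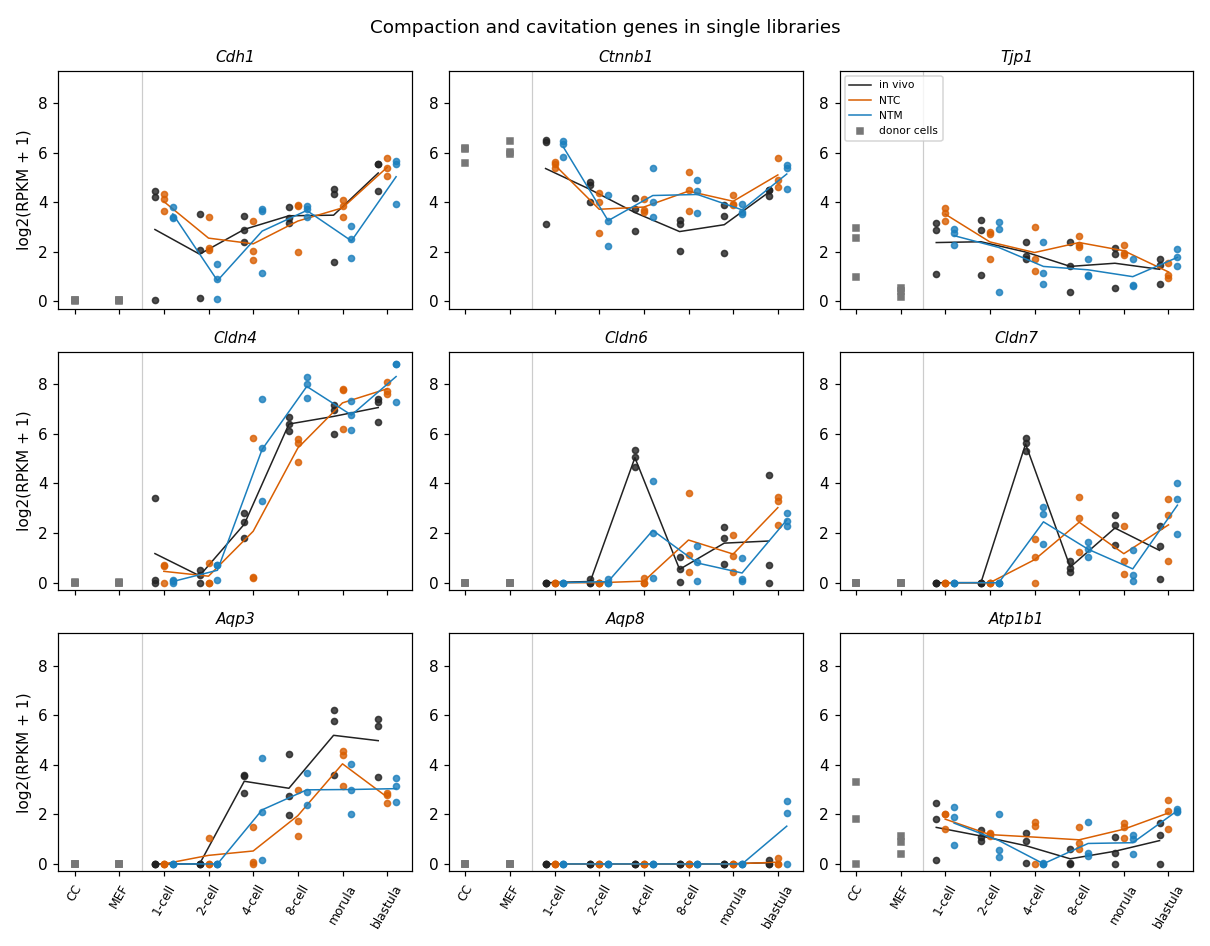
Level of each gene in every library, as log2(RPKM + 1), against donor cell type or stage. Circles are single embryos, lines join the group means, and squares are donor cell libraries. Cldn6 and Cldn7 peaked at the 4-cell stage in in vivo embryos (means 32.6 and 47.7 RPKM) and were under 1 RPKM in mean in 8-cell embryos, where in vivo Cldn4 had a mean of 84.2 RPKM.

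Cdh1 (ENSMUSG00000000303, chr8:106603351-106670246, plus strand; coordinates here are those of the GENCODE annotation of GRCm38) was present from the 1-cell stage on and had its 3 highest group means in blastulas. In in vivo 1-cell embryos it measured 0.0419, 17.5 and 20.6 RPKM, the low value being that of replicate 1, and in NTC 1-cell embryos 11.5, 19.0 and 16.4 RPKM. In NTM embryos it stood at 9.25, 13.2 and 9.51 RPKM at the 1-cell stage and at 1.83, 0.890 and 0.0706 RPKM at the 2-cell stage. These NTM groups did not overlap, and Cdh1 fell by 2.69 on the log2 scale (SE 0.59, adjusted p = 0.0253), 1 of 2 genes called of the 4 tested, where 9.4% of all genes were called and 6.68% as lower. Without any single NTM 1-cell library the adjusted p was 0.130 to 0.139. In vivo Cdh1 showed no call at this step (log2 change -0.99, SE 1.23, adjusted p = 0.866), nor without replicate 1 of the 1-cell stage (-2.41, adjusted p = 0.602). From 4-cell to morula the group means of Cdh1 lay between 4.61 and 14.3 RPKM in all 3 embryo types.

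In vivo blastulas held 45.4, 46.1 and 20.8 RPKM of Cdh1, NTC blastulas 53.8, 32.7 and 40.5 RPKM and NTM blastulas 49.1, 45.0 and 14.1 RPKM. The 3 embryo types overlapped widely at this stage. From morula to blastula Cdh1 rose by 1.63 in NTC embryos (SE 0.35, adjusted p = 0.0279), the only one of the 8 genes tested that was called, beside 7.16% of all genes, 4.54% as higher. In NTM embryos it rose by 2.59 (SE 0.58, adjusted p = 0.0321), together with Cldn6 and Cldn7, 3 of 9 genes called beside 4.22% of all genes, 3.73% as higher. Median-ratio scaling moved the share of higher calls over all genes from 63.4% to 48.4% in the NTC step and from 88.2% to 55.6% in the NTM step. The in vivo blastulas lay higher than the 8-cell embryos without overlap (log2 change 1.73, SE 0.66, adjusted p = 0.195), and no member was called in vivo from 8-cell to morula, from morula to blastula or from 8-cell to blastula, where 0.0116%, 0.801% and 3.85% of all genes were called. At an unadjusted p under 0.05, Cdh1 passed from 8-cell to blastula, and Cldn7 and Aqp3 from 8-cell to morula. In mean RPKM, Cdh1 rose 2.61-fold from morula to blastula in vivo, 3.27-fold in NTC and 7.55-fold in NTM embryos. By the interaction term, the change differed between NT and in vivo embryos for no member in these steps. For morula to blastula 0.236% of all genes were called in NTC and 0.647% in NTM, and for 8-cell to blastula 0.229% and 0.649%. Both NT calls of Cdh1 were lost when single libraries were left out. Without any one NTC blastula, NTC morula replicate 1 or NTC morula replicate 3 the adjusted p was 0.0544 to 0.108, and without NTM blastula replicate 1, NTM blastula replicate 2 or any one NTM morula it was 0.0605 to 0.165.

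Ctnnb1 (ENSMUSG00000006932, chr9:120929216-120960507, plus strand) was the most abundant of the 9 genes in donor cells, with 70.2, 47.5 and 71.7 RPKM in CC and 61.3, 63.4 and 87.5 RPKM in MEF. At the 1-cell stage in vivo embryos held 7.60, 91.0 and 86.2 RPKM, NTC embryos 46.1, 48.0 and 40.4 RPKM and NTM embryos 80.9, 55.3 and 88.6 RPKM. No member was called between NT and in vivo embryos at this stage, in NTC (1.16% of all genes called), in NTM (1.28%) or over both (3.82%), and none passed an unadjusted p under 0.05. Without in vivo replicate 1, Ctnnb1 differed between NTC and in vivo by -0.97 (adjusted p = 0.0120), under the limit of 1. At the 2-cell stage NTC embryos were at 19.9, 15.2 and 5.70 RPKM and NTM embryos at 8.44, 3.71 and 18.7 RPKM. Every NT 2-cell library was thus below every 1-cell library of its type. Ctnnb1 fell by 1.80 in NTC (SE 0.42, adjusted p = 0.0233, 1 of 4 genes tested, beside 13.5% of all genes, 8.95% as lower) and by 2.96 in NTM embryos (SE 0.55, adjusted p = 0.0131). Without any single 1-cell library of the type, the adjusted p was 0.0894 to 0.106 in NTC and 0.0554 to 0.0920 in NTM. Median-ratio scaling also ended both calls (adjusted p = 0.0682 and 0.0517), and it moved the share of higher calls over all genes from 33.6% to 55.8% in NTC and from 28.9% to 56.0% in NTM. In vivo 2-cell embryos held 25.1, 27.4 and 15.1 RPKM of Ctnnb1. No member and no other gene was called in vivo in this step. Without in vivo 1-cell replicate 1 the in vivo change of Ctnnb1 was -1.97 (SE 0.47, adjusted p = 0.412). The NT change differed from the in vivo change for no member by the interaction term, beside 0.0256% of all genes called in NTC and 0.204% in NTM. In vivo 8-cell embryos held 7.77, 8.65 and 3.14 RPKM of Ctnnb1, and all 6 NT 8-cell embryos were higher, at 10.9 to 36.8 RPKM, but the difference was not called (pooled log2 difference 1.56, SE 0.49, adjusted p = 0.0936; 3.61% of all genes called). Ctnnb1 shares 759 exon bases with Ulk4 on the opposite strand, which was at most 2.62 RPKM in any library. Strand use in the counting is not given in the sources used here.

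Tjp1 (ENSMUSG00000030516, chr7:65296165-65527781, minus strand), the ZO-1 scaffold under the claudins, was low throughout. Its highest group was NTC 1-cell, with 8.48, 12.6 and 10.7 RPKM, above the in vivo 1-cell embryos at 1.15, 6.29 and 7.89 RPKM without overlap and without a call (log2 difference 1.15, SE 0.60, adjusted p = 0.286). In blastulas the 9 libraries ranged from 0.644 to 3.35 RPKM. No stage step called Tjp1 in any embryo type. The 95% interval of its pooled difference between NT and in vivo blastulas was -0.78 to 1.16 on the log2 scale, and differences within it remain possible.

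The 3 claudins, the membrane strands of the tight junction, separated most clearly by stage. Cldn4 (ENSMUSG00000047501, chr5:134945119-134946934, minus strand) has 1 exon, while Cldn6 (ENSMUSG00000023906, chr17:23679249-23682446, plus strand) and Cldn7 (ENSMUSG00000018569, chr11:69964779-69967885, plus strand) are spliced. The stretches upstream of the transcript start are printed for the claudins and for Aqp3 because Cldn6, Cldn7 and Aqp3 appeared together at one stage and Cldn4 followed a different course. They are RefSeq sequences of GRCm38.p6, 5′ to 3′ on the gene's strand, and end at the annotated gene start. RefSeq promoter windows matched 8 of the 9 genes.

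Cldn6, chr17:23679115-23679248, plus strand: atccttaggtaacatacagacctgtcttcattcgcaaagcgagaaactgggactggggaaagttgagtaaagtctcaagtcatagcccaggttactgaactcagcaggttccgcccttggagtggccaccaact

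Cldn7, chr11:69964529-69964778, plus strand: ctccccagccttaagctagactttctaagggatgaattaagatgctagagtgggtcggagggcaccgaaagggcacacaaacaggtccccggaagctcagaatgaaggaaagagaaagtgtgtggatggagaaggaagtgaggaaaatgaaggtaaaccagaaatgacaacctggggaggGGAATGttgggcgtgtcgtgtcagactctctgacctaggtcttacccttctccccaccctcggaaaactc

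Aqp3, chr4:41098184-41098433, minus strand: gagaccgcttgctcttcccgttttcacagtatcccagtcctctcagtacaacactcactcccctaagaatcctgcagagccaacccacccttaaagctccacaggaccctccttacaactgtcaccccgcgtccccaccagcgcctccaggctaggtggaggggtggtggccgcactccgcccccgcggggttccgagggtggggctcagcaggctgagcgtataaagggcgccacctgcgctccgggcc

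Cldn4, chr5:134946935-134947184, minus strand: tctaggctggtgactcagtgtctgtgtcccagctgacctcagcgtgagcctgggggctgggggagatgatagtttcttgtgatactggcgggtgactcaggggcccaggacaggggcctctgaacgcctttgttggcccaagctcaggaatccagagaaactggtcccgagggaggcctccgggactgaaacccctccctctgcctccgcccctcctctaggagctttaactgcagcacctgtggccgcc

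Capitals mark a match to GGAATG, the core bound by TEAD factors. It lies 70 bases before the Cldn7 start, and a second match in the Cldn6 window begins 1 base before its start, past the stretch printed. Over the full windows, from 250 bases before to 50 after each start and on both strands, GGAATG was present for 3 of the 8 genes (Cldn6, Cldn7 and Aqp8) and in 14.7% of all 32851 mouse promoter windows. The TFAP2 core GCCNNNGGC was found for 2 of the 8 (Ctnnb1 and Tjp1; 16.6% of all windows), the KLF core GGGNGTGG for the same genes (17.6%) and the grainyhead core AACCNGTT for none (2.09%). No match overlapped a match to another motif. These are letter matches only and were not tested for use.

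In vivo embryos gained Cldn6, Cldn7 and Aqp3 from 2-cell to 4-cell, and Cldn6 and Cldn7 were low again in 8-cell embryos. Cldn6 measured 0.107, 0 and 0 RPKM in 2-cell and 40.2, 33.0 and 24.4 RPKM in 4-cell embryos, and 0.464, 0.0320 and 1.03 RPKM at the 8-cell stage. Cldn7 was at 0 in all 2-cell embryos, at 38.7, 55.6 and 48.9 RPKM at the 4-cell stage and at 0.825, 0.495 and 0.354 RPKM at the 8-cell stage. All 3 4-cell embryos stood far above every neighbour. Cldn6 rose by 4.99 (SE 0.35, adjusted p = 5.54e-05) and then fell by 4.50 (SE 0.42, adjusted p = 0.000168). Cldn7 rose by 5.59 (SE 0.34, adjusted p = 3.59e-05), at least 430-fold in RPKM against a floor of 3 reads in the shallowest 2-cell library, and then fell by 4.96 (SE 0.36, adjusted p = 5.91e-05), 85.5-fold in mean RPKM.

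Cldn4 took the opposite turn at the 8-cell stage. It was at 0.444, 0.238 and 0 RPKM in in vivo 2-cell, at 2.51, 5.99 and 4.49 RPKM in 4-cell and at 69.3, 100.4 and 82.8 RPKM in 8-cell embryos. In vivo 1-cell embryos held 0, 9.52 and 0.0910 RPKM of Cldn4, with replicate 2 above every in vivo 4-cell embryo. From the 2-cell stage to the 8-cell stage, each stage lay above the one before without overlap. Cldn4 rose by 2.08 (SE 0.41, adjusted p = 0.00415) and then by 4.04 (SE 0.37, adjusted p = 0.000166). Of the 8 genes tested 4 were thus called from 2-cell to 4-cell, all higher, where 52.2% of all genes were called in either direction and 31.4% as higher. From 4-cell to 8-cell 3 of 7 were called, where 43.7% of all genes were called, 4.4% as higher and 39.3% as lower. The 4 called genes passed the filter on low values only through the 4-cell libraries in the first of these steps, so that they had to differ to be tested. The median over all genes was 0.36 in the first step and -1.05 in the second, which median-ratio scaling moved by -0.56 and 0.44. With that scaling Cldn4 still rose by 4.65 from 4-cell to 8-cell and the changes of Cldn6 and Cldn7 were -3.78 and -4.25, while the share of higher calls over all genes went from 10.1% to 25.1%. Each of these 7 calls was kept under all 14 alternatives run. Mitochondrial reads went from 5.68% to 8.87% in in vivo 4-cell embryos to 32.1% to 45.0% at the 8-cell stage, and their part in these results was not tested.

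**Figure D2:**
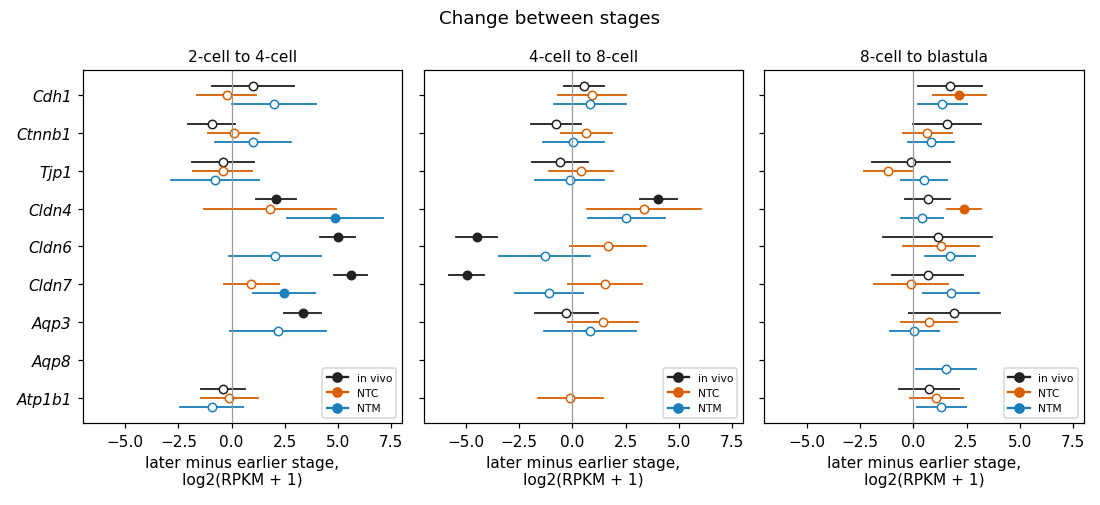
Log2 change with its 95% interval for each gene over 3 steps, by embryo type; filled circles were called and open circles were not, and a gene without a circle was not tested. In vivo Cldn6 and Cldn7 rose from 2-cell to 4-cell and fell from 4-cell to 8-cell. No NT interval drawn for these genes reached the in vivo change of the same gene in either step.

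NT 4-cell embryos held little of Cldn6 and Cldn7. In NTC embryos Cldn6 was at 0.139, 0 and 0 RPKM and Cldn7 at 2.37, 1.04 and 0 RPKM. In NTM embryos Cldn6 was at 0.153, 3.06 and 16.2 RPKM and Cldn7 at 1.95, 7.20 and 5.82 RPKM. All 6 NT embryos lay below all 3 in vivo embryos for both genes, although NTM replicate 3 reached 16.2 RPKM of Cldn6 against 24.4 RPKM in the lowest in vivo embryo. Against in vivo, Cldn6 was lower in NTC (log2 difference -4.98, SE 0.41, adjusted p = 6.48e-05) and not called in NTM (log2 difference -2.93, SE 0.92, adjusted p = 0.0559). Cldn7 was 42.0-fold lower in mean RPKM in NTC (log2 difference -4.66, SE 0.50, adjusted p = 0.000245) and 9.57-fold lower in NTM (-3.14, SE 0.53, adjusted p = 0.00597). Counting Aqp3, 3 of the 8 genes tested were lower in NTC, where 27.8% of all genes were called and 20.4% were lower, and 1 of 7 in NTM, where 21.1% were called and 17.8% were lower. Without NTM 4-cell replicate 3, 3 were called in NTM, with Cldn6 lower (-3.93, SE 0.64, adjusted p = 0.00822) and Cldn4 higher (4.05, SE 0.69, adjusted p = 0.00921). Cldn6 passed the NTC filter only through the in vivo libraries, and both comparisons use the same 3 in vivo libraries. The NTM call of Cldn7 was kept without each single library (adjusted p = 0.00482 to 0.0456) and lost when a replicate number was left out of both groups (0.0525 to 0.0625). The NTC calls of Cldn6 and Cldn7 were kept under all 14 alternatives. Over both NT types Cldn6 (-3.95, SE 0.72, adjusted p = 0.00223) and Cldn7 (-3.90, SE 0.52, adjusted p = 0.000331) were lower, 2 of 8 genes tested, where 26.6% of all genes were called and 21.6% were lower. The median difference over all genes was -0.39 in NTC and -0.69 in NTM, which median-ratio scaling moved by 0.21 and 0.34. The share of all genes without overlap is not given here. The part of the higher mitochondrial share in NT 4-cell libraries (29.6% to 40.4%) was not tested. At the 2-cell stage no member was called between NT and in vivo embryos, beside 0.152% of all genes in NTC, 0.141% in NTM and 0.338% over both, and none passed an unadjusted p under 0.05.

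The step from 2-cell to 4-cell was also compared between embryo types. Cldn7 was at 0 and Cldn6 at 0.107 RPKM or less in every 2-cell library. The terms of both genes for this step therefore restate the 4-cell differences above and are no separate result. The change of Cldn6 was smaller in NTC than in in vivo embryos (interaction term -4.93 on the log2 scale, SE 0.50, adjusted p = 6.48e-05), as was that of Cldn7 (-4.66, SE 0.64, adjusted p = 0.000457), beside 14.3% of all genes called for this term. Both passed the filter only through the in vivo 4-cell libraries, as did Aqp3 in this term. Cldn7 was called in the same term for NTM (-3.14, SE 0.67, adjusted p = 0.0111; 9.91% of all genes), a call that a pseudocount of 0.1 ended (0.0779), and it rose within NTM embryos by 2.45 (SE 0.65, adjusted p = 0.0234; 2 of 8 genes tested with Cldn4, beside 26.4% of all genes called, 12.1% as higher), at least 40.1-fold in mean RPKM over the floor. Cldn4 and Cldn7 passed the filter in this NTM step only through the NTM 4-cell libraries. The rise of Cldn7 was lost without NTM 2-cell replicate 1 or 2 or NTM 4-cell replicate 2 or 3 (adjusted p = 0.0502 to 0.0707). No member was called from 2-cell to 4-cell in NTC embryos (36.6% of all genes called), and none passed an unadjusted p under 0.05. From 4-cell to 8-cell none was called in NTC (0.0564% of all genes) or NTM embryos (0.363%), where Cldn4 alone passed an unadjusted p under 0.05 in each. From 8-cell to morula none was called either, nor was any gene, with Cldn4 and Aqp3 in NTC and Cdh1 and Cldn4 in NTM embryos under an unadjusted p of 0.05.

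NTM 4-cell embryos held 169, 41.5 and 8.87 RPKM of Cldn4, all above the in vivo 4-cell embryos, but the difference was not called (log2 difference 3.02, SE 0.96, adjusted p = 0.0592). NTC embryos were split, with 55.4 RPKM in replicate 1 and 0.139 and 0.161 RPKM in replicates 2 and 3, and without replicate 1 Cldn4 was lower than in vivo (-2.16, SE 0.51, adjusted p = 0.0179). Within NTM embryos Cldn4 rose by 4.87 from the 2-cell stage (SE 0.99, adjusted p = 0.00819), and without NTM 2-cell replicate 2 the adjusted p was 0.0510. Taken as a share of the summed RPKM of the 3 claudins, Cldn4 made up 3.09% to 6.33% in in vivo 4-cell embryos, 11.8% to 100% in NTC and 28.7% to 98.8% in NTM 4-cell embryos. From the 8-cell stage on it made up 72.0% to 99.7% in all 27 libraries. NTC 4-cell replicates 2 and 3 rest on few reads in this measure, with a claudin sum as low as 0.161 RPKM.

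**Figure D3:**
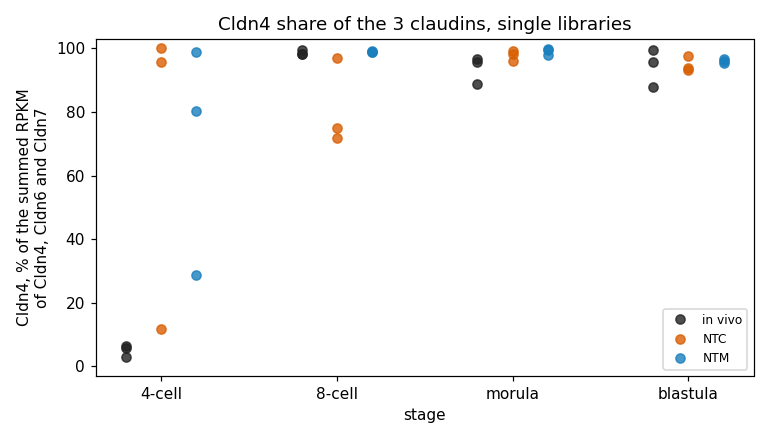
Cldn4 as a percentage of the summed RPKM of Cldn4, Cldn6 and Cldn7 (vertical axis) by stage, 1 point per embryo. In vivo 4-cell embryos sit at 3.09% to 6.33%, and all embryos from the 8-cell stage on at 72.0% or more.

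At the 8-cell stage NTM embryos held 258, 310.3 and 173 RPKM of Cldn4 and NTC embryos 48.3, 54.1 and 28.5 RPKM, against 69.3 to 100.4 RPKM in vivo. The 3 types did not overlap, with NTM highest and NTC lowest. NTM exceeded in vivo by 1.52 (SE 0.32, adjusted p = 0.0413; 1 of 8 genes tested, beside 2.02% of all genes, 1.2% as higher), a call that was lost without any one of the 6 libraries (adjusted p = 0.0566 to 0.182) and under median-ratio scaling (0.0529). NTC was not called there (-0.97, SE 0.41, adjusted p = 0.226; 1.46% of all genes called). The difference between NTM and NTC was 2.48 (SE 0.38, adjusted p = 0.0700) and was called with that scaling (2.71, adjusted p = 0.0322). In all, 0 of 41 tests of members between NTM and NTC were called by limma over the 6 stages, where 19.8% of all genes were called at the 1-cell stage, 0.0507% at the 8-cell stage and 0% at the others. At an unadjusted p under 0.05, 6 of the 41 passed. Blastulas held 155, 168 and 89.4 RPKM of Cldn4 in vivo, and NTC blastulas 214, 274 and 193 RPKM. NTM blastulas were at 449, 452 and 156 RPKM. From 8-cell to blastula it rose in NTC embryos by 2.39 (SE 0.36, adjusted p = 0.00568), 5.20-fold in mean RPKM and 1 of 2 genes called of 8 beside 7.26% of all genes (4.28% as higher). Without NTC blastula replicate 1 or 2 the adjusted p was 0.0502 or 0.0553. Cdh1 was the other, with a rise of 2.17 (SE 0.57, adjusted p = 0.0471) that was lost without NTC 8-cell replicate 2 or any one NTC blastula (adjusted p = 0.0912 to 0.198). In NTM embryos no member was called in that step, where 7.12% of all genes were, and at an unadjusted p under 0.05 there were 5 of 9. Without NTM blastula replicate 3, 3 were called as higher: Cdh1 (1.92, adjusted p = 0.0266), Cldn7 (2.36, adjusted p = 0.0300) and Aqp8 (2.28, adjusted p = 0.0288). Aqp8 passed the filter there only through the blastulas.

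Cldn6 and Cldn7 were measured at low level in blastulas. In vivo, Cldn6 was at 19.3, 0.621 and 0 RPKM and Cldn7 at 1.76, 0.12 and 3.84 RPKM. NTC blastulas held 9.91, 8.86 and 4.03 RPKM of Cldn6 and 5.64, 9.36 and 0.854 RPKM of Cldn7, and NTM blastulas 5.92, 3.93 and 4.62 RPKM of Cldn6 and 9.38, 15.4 and 2.90 RPKM of Cldn7. The in vivo blastulas were spread, with a single embryo high in Cldn6, and overlapped the NT blastulas for both genes. From morula to blastula Cldn6 and Cldn7 rose in NTM embryos, by 2.14 (SE 0.53, adjusted p = 0.0445) and 2.57 (SE 0.65, adjusted p = 0.0488). Cldn6 passed the filter there only through the blastulas. Both calls were lost without NTM blastula replicate 1 or 2 or any one NTM morula (adjusted p = 0.0606 to 0.196) and under median-ratio scaling (0.0870 and 0.0725). Without NTM blastula replicate 3, 6 members were called in that step.

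**Figure D4:**
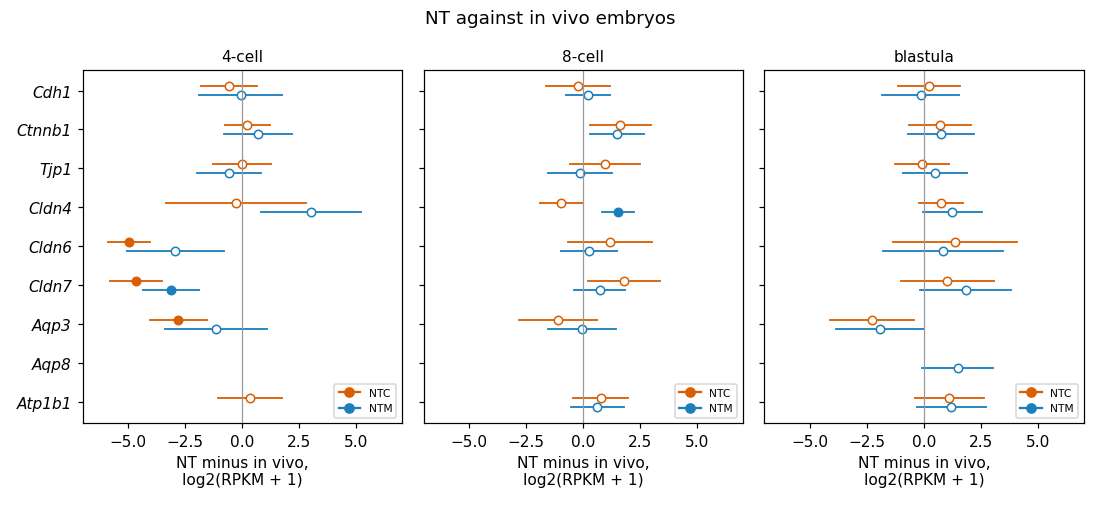
Log2 difference of NTC and NTM from in vivo embryos with its 95% interval, at the 4-cell, 8-cell and blastula stages; filled circles were called, and a gene without a circle was not tested. At the 4-cell stage Cldn7 was called in both NT types and Cldn6 and Aqp3 in NTC, and at the 8-cell stage Cldn4 in NTM.

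Aqp3 (ENSMUSG00000028435, chr4:41092722-41098183, minus strand), a channel for water and glycerol, was higher in in vivo than in NTC 4-cell embryos. It was at 0 in all in vivo 2-cell embryos and at 6.28, 10.9 and 10.8 RPKM in 4-cell embryos, and it rose by 3.33 (SE 0.36, adjusted p = 0.000289), at least 79.1-fold in mean RPKM over the floor. NTC 4-cell embryos held 1.83, 0.0462 and 0 RPKM, below all in vivo embryos (log2 difference -2.81, SE 0.55, adjusted p = 0.00573), and the step from the 2-cell stage was smaller than in vivo (interaction term -3.16, SE 0.69, adjusted p = 0.00904). Both were kept without each single library and lost when replicate 2 or 3 was left out of every group (adjusted p = 0.0776 to 0.153). NTM 4-cell embryos were spread over 18.4, 0.112 and 3.32 RPKM and overlapped the in vivo embryos (log2 difference -1.15, SE 0.98, adjusted p = 0.425).

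The in vivo levels of Aqp3 were 11.2, 72.7 and 52.8 RPKM in morulae and 56.4, 10.2 and 46.8 RPKM in blastulas. In NTC blastulas it was at 6.29, 4.48 and 5.78 RPKM and in NTM blastulas at 7.83, 10.1 and 4.65 RPKM. All 6 NT blastulas lay below all 3 in vivo blastulas, though NTM replicate 2 and in vivo replicate 2 lay close together at 10.1 and 10.2 RPKM. Over both NT types Aqp3 was lower by 2.10 (log2 difference -2.10, SE 0.61, adjusted p = 0.0378), 1 of 9 genes tested, beside 18.5% of all genes, 1.93% as lower. Cldn4 differed there by 1.00 (SE 0.43, adjusted p = 0.119) and by 0.44 with median-ratio scaling. Without NTM blastula replicate 3, Cldn4 (1.26, adjusted p = 0.0293) and Aqp8 (1.13, adjusted p = 0.0297) were called as higher, and without in vivo blastula replicate 1 Cldn6 was (2.43, adjusted p = 0.0144). Aqp8 passed the filter there only through the NTM blastulas. The median difference over all genes was 0.79 here, and median-ratio scaling gave -2.60 for Aqp3 (adjusted p = 0.0148) and moved the share of higher calls over all genes from 89.6% to 74.6%. The call of Aqp3 was lost without in vivo blastula replicate 1 or 3 or any one of the 6 NT blastulas (adjusted p = 0.0572 to 0.0935). Neither NT type alone was called against in vivo (NTC -2.28, adjusted p = 0.105; NTM -1.93, adjusted p = 0.190), where 9.46% and 0.746% of all genes were, though NTC was without in vivo blastula replicate 2 (-3.02, adjusted p = 0.0420). At the morula stage no member was called (NTC 0.0321% of all genes, NTM 0.168%, both 0.693%), and Aqp3 and Cldn7 passed an unadjusted p under 0.05 in NTM and over both types.

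Aqp8 (ENSMUSG00000030762, chr7:123462291-123468004, plus strand), a second water channel, was measured at 4.79, 3.10 and 0 RPKM in NTM blastulas. Elsewhere it was at 0.110 RPKM in 1 in vivo and 0.166 RPKM in 1 NTC blastula, 2 and 5 reads, and at 0 in all other libraries. A value of 0 allows up to 3 reads, or 0.0722 to 0.358 RPKM of Aqp8 in an embryo library. The NTM libraries overlapped the others through replicate 3, and Aqp8 was not called there (against in vivo, log2 difference 1.47, SE 0.68, adjusted p = 0.214). Without replicate 3, which had the lowest Cdh1, Ctnnb1, Tjp1, Cldn4, Cldn7 and Aqp3 and the highest mitochondrial share (50.4%) of the NTM blastulas as well, it was called (2.23, SE 0.36, adjusted p = 0.0255). That library, at 0 RPKM of Aqp8, was singled out after seeing the data. In every comparison that tested Aqp8, it passed the filter only through the NTM blastulas. It thus had to differ to be tested.

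Atp1b1 (ENSMUSG00000026576, chr1:164437109-164458355, minus strand), a subunit of the sodium pump, stayed under 6 RPKM in every embryo. In vivo blastulas held 1.24, 2.16 and 0 RPKM, NTC blastulas 5.04, 1.69 and 3.43 RPKM and NTM blastulas 3.29, 3.41 and 3.59 RPKM. NTM blastulas lay above all in vivo blastulas and NTC blastulas overlapped them, and neither difference was called (NTM 1.21, SE 0.65, adjusted p = 0.274). Atp1b1 shares 575 exon bases with Nme7 on the opposite strand, which reached 12.8 RPKM. None of the comparisons described here called this gene as run, but some alternatives did. Against MEF it was called by limma as higher in NTM blastulas without MEF replicate 3 (1.51, adjusted p = 0.0411). A pseudocount of 0.1 (adjusted p = 0.0492) and one fit over all 20 groups (0.0478) gave that call too. In NTM 1-cell embryos it was called against MEF without NTM 1-cell replicate 1 (1.29, adjusted p = 0.0469).

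Donor cells lacked most of the 9 genes. Cdh1 was at 0.0416 RPKM or less in all 6 donor libraries, Cldn6, Cldn7, Aqp3 and Aqp8 were at 0 in all of them, and Cldn4 had 1 read in 1 CC and in 1 MEF library. At the 1-cell stage Cdh1 was already higher than in the donor, by 3.98 in NTC (SE 0.28, adjusted p = 0.000130; 1 of 4 genes tested, 50% of all genes called, 29.3% as higher) and by 3.49 in NTM embryos (SE 0.30, adjusted p = 9.26e-05; with Tjp1, 2 of 4, 55.2% of all genes called, 25.2% as higher). Tjp1 was at 0.331, 0.449 and 0.134 RPKM in MEF and at 3.84, 6.66 and 5.69 RPKM in NTM 1-cell embryos (log2 difference 2.28, SE 0.33, adjusted p = 0.00112). Cdh1 in both comparisons and Tjp1 against MEF passed the filter only through the embryos, and so had to differ to be tested. Without CC replicate 3 Tjp1 was called in NTC as well (1.74, SE 0.54, adjusted p = 0.0471). In blastulas Cdh1, Cldn4, Cldn6 and Aqp3 were higher than in CC in NTC (4 of 8 genes tested; 24.2% of all genes called, 9.92% as higher), and those genes and Cldn7 were higher than in MEF in NTM embryos (5 of 9; 30.8% of all genes called, 11% as higher). All of these passed the filter there only through the blastulas. Against the floor of 3 reads, Aqp3 was at least 106-fold higher than in CC and at least 170-fold higher than in MEF. Ctnnb1, high in both donors, was called in none of these comparisons, and no member was called between MEF and CC, where 6.29% of all genes were.

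Of 74 other genes of junctions, polarity, ion and water transport and their regulators, 72 were in the table. From in vivo 2-cell to 4-cell, 55 were tested, of which 14 rose and 9 fell, where 31.4% and 20.8% of all genes did (median log2 change 0.42, against 0.36 over all genes). The risers included Gja1, the gap junction protein connexin 43, from 0.00773 to 282 RPKM in mean (log2 change 8.12, adjusted p = 1.77e-05), and F11r, the junctional adhesion molecule JAM-A, from 2.77 to 104 RPKM (5.27, adjusted p = 0.000670). Gja1 passed the filter on low values only through the 4-cell libraries, so that it had to differ to be tested. The same can hold for other genes in these counts. Rhoa, a GTPase that controls actomyosin contraction, rose by 4.41 (adjusted p = 0.000104), and Tead4, a transcription factor of the trophectoderm lineage, rose by 4.87 (adjusted p = 4.83e-05). Yap1, the co-activator that pairs with TEAD factors, fell by 3.66 (adjusted p = 0.000631), and Cldn8, another claudin, fell by 4.02 (adjusted p = 0.000164). From 4-cell to 8-cell 2 of 44 rose (Amot and Klf5) and 11 fell, where 4.4% and 39.3% of all genes did (median -0.67, against -1.05 over all genes), F11r by 2.61 (adjusted p = 0.00335) and Rhoa by 2.42 (adjusted p = 0.00129).

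In the pooled comparison of NT with in vivo 4-cell embryos, of 46 pathway genes tested 3 were higher and 9 lower, where 5% and 21.6% of all genes were (median -0.35, against -0.41 over all genes). Among the lower were F11r (log2 difference -3.05, adjusted p = 0.00617), Gja1 (-2.39, adjusted p = 0.000503), the tight junction protein Ocln (-2.03, adjusted p = 0.0217), Rhoa (-1.91, adjusted p = 0.00555) and the sodium pump subunit Atp1b3 (-1.99, adjusted p = 0.0264). Epcam, an epithelial adhesion molecule, was higher (2.06, adjusted p = 0.00881), with 14.2 RPKM in mean in vivo, 42.4 RPKM in NTC and 70.5 RPKM in NTM embryos. Yap1 (2.00, adjusted p = 0.0120) and the polarity gene Scrib (1.68, adjusted p = 0.0370) were the other genes that were higher. From 8-cell to blastula, keratins of the outer epithelium were called in all 3 embryo types: Krt8 rose by 7.52 (adjusted p = 0.00211) in vivo, by 3.46 (0.0320) in NTC embryos and by 3.97 (0.0121) in NTM embryos. Over the lists 6 of 46 genes rose in vivo, where 1.63% of all genes did. In NTC 8 of 55 rose, where 4.28% of all genes did, and Atp1b2 and Aqp9 fell. The count in NTM was 11 of 51, where 5.4% of all genes rose. In pooled NT blastulas 9 of 53 were higher than in vivo, where 16.6% of all genes were, and Gja1 was lower (-2.60, adjusted p = 0.00357), with medians of 0.81 over the lists and 0.79 over all genes.

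Over the 60 libraries, the genes most alike to the members in log2(RPKM + 1) were searched among 13535 genes with a mean of at least 0.5 RPKM. Cldn6 was most like Cldn7 (Pearson r 0.81), followed by Slc39a4 (0.80) and Slc4a11 (0.77). For Cldn7 they were Slc39a4 (0.86), Syngr1 (0.83) and Cldn6 (0.81), and for Cldn4 Pramel5 (0.91), Vnn1 (0.90) and Mylpf (0.89). Aqp3 was followed most closely by Gm15500 (0.89), Khdc3 (0.88) and Slc1a1 (0.85), and Cdh1 by Hsp90aa1 (0.76), Elf3 (0.72) and AU018091 (0.71). The closest genes of Ctnnb1 were Slc7a1 (0.74), Copb1 (0.73) and Hsd17b4 (0.71), those of Tjp1 Lig4, Rps6ka5 and Prdm6 (each 0.69), and those of Aqp8 Gm44488 (0.73), Tmprss2 (0.67) and S1pr1 (0.65). Between members, Cldn4 and Aqp3 reached 0.81, which was 0.46 over the 36 libraries from 4-cell to blastula, while Cldn6 and Cldn7 went from 0.81 to 0.72. These values share libraries, depth and the stages themselves, and carry no test.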

How the data were processed

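Single embryos and donor cells were lysed, and cDNA was amplified and sequenced; per the study's methods reads were aligned with TopHat and counted per gene with HTSeq, while the submitters' processing notes name Bowtie 0.12.2 and the mm8 build. The authors deposited RPKM values without counts for 27238 Ensembl genes, and the report starts from these. Gene names, exon lengths and coordinates came from GENCODE (GRCm38). Depth was recovered by multiplying RPKM by exon length; in the poorest library 74.5% of values under 100 reads came within 0.02 of a whole read, so no count model was used.

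Groups and replicate numbers followed the labels. Differences were tested in R 4.3.3 with limma 3.58.1 (trended variance) on log2(RPKM + 1), after a filter at a mean of 0.5 RPKM, with Benjamini-Hochberg adjustment over all genes tested and 1 fit per comparison. The procedure was tested on simulated data. All 9 members are named, and pathway genes are named by the size of their change among those called, up to 4 per list. The genes most alike to Atp1b1 are not reported here. The members and lists were chosen with earlier results of these data known. Embryos came from independent experiments per the labels, though no label ties a library to one. Alternatives were a pseudocount of 0.1, no filter, median-ratio scaling, fitting the 20 groups together, a replicate block, dropping the fold limit and leaving out libraries; the 3 libraries that stand apart were singled out after seeing the data.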

Additional observations from a re-analysis of the deposited data

Results flagged for a closer look

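The change between stages differed between NT and in vivo embryos for 4 results from 2-cell to 4-cell and 3 from 4-cell to 8-cell, each by the interaction term in limma. From 2-cell to 4-cell the NTC change was smaller than the in vivo change, with a log2 difference of changes of -4.93 for Cldn6, -4.66 for Cldn7 and -3.16 for Aqp3, and the NTM change was smaller for Cldn7 (-3.14). These NTC results entered the test only through the in vivo 4-cell libraries, so that the genes had to differ to be tested. With Cldn7 at 0 and Cldn6 at 0.107 RPKM or less in every 2-cell library, their terms for this step restate the 4-cell differences. For Aqp3, NTC replicate 2 (1.05 RPKM) alone was above 0 among the 2-cell libraries. From 4-cell to 8-cell Cldn6 and Cldn7 fell in vivo, while in NTC embryos their log2 changes were 1.66 and 1.51, neither of them called. The differences of changes were 6.16 (SE 0.96, adjusted p = 0.000797) and 6.47 (SE 0.84, adjusted p = 0.000240). For Cldn7 the difference of changes with NTM was 3.86 (SE 0.68, adjusted p = 0.00221). All 7 rest on the same 3 in vivo 4-cell libraries, in which all 3 values of Cldn6 and Cldn7 were above every other library. Leaving out replicate 2 or 3 of every group ended the Aqp3 call, and leaving out any replicate number the NTM call of Cldn7 from 2-cell to 4-cell. Without NTM 4-cell replicate 3, 3 members were called in the NTM term of either step, Cldn4 and Cldn6 besides Cldn7. For these terms from 4-cell to 8-cell, 19.5% of all genes were called with NTC and 18.7% with NTM.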

How the results depend on the processing

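Over 14 to 20 alternatives each, no call reversed its direction. Calls are counted here per gene and comparison, so that 1 gene can count several times, and the comparisons share libraries. No share over all genes stands beside these sums. Calls over all genes could also fall, without 1 library from 415 to as few as 28 in NTM from morula to blastula. Calls of members over stage transitions numbered 18, and 9 without a filter on low values and 7 to 10 without one replicate number. Between NT and in vivo embryos 8 were called, 16 in one fit over all 20 groups and 3 to 5 without replicate 2 or 3. Between NTM and NTC none was called, against 1 with median-ratio scaling, 2 in one fit over all groups, 1 with a replicate block and 1 with no limit on the fold. Interaction calls numbered 7, and 12 in one fit and 4 to 6 without one replicate number. Pathway calls numbered 123 over transitions (63 with no filter, 37 to 62 without one replicate number) and 48 between NT and in vivo (21 with no filter, 107 in one fit, 9 to 22 without one replicate number). Fewer libraries enter the fits without a replicate; otherwise the cause was not tested.

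Replicate numbers did not pair the samples: deviations of same-numbered libraries had a median correlation of -0.00127, those of different numbers 0.000315, and in 0 of 41 comparisons was every pair above 0.1. With a replicate block 17 transition, 9 NT, 12 donor and 7 interaction calls of members were made, and 117 and 35 pathway calls. No share over all genes stands beside these sums either. With 3 embryos per group, differences of about 1 on the log2 scale were often not resolved, and 0 reads in a library left up to 0.376 RPKM possible.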
